A study of Mus musculus with 4 samples.

Results

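The 10 genes described here encode ligands of the TNF superfamily, namely Tnf, Lta, Ltb, Fasl, Tnfsf10, Tnfsf4, Tnfsf8, Tnfsf11, Tnfsf13b and Tnfsf14. They were taken by symbol from the 35798 named genes of the count table, and all 10 were found. The 4 libraries came from Ly49H+ NK cells that had been transferred into NSG mice and recovered from the spleen on D3.5 of murine cytomegalovirus (MCMV) infection, 2 from CD45.1 wild-type donors and 2 from CD45.2 TNFR2 KO donors, which lack a functional Tnfrsf1b gene in all cells. Both donor populations shared the same infected hosts, and each library pooled the spleens of 3 mice. The wild-type and TNFR2 KO libraries of 1 replicate number came from the same pool. NSG mice have no T, B or NK cells of their own but keep their myeloid cells. The donors differed in their CD45 allele too, so that the effects of genotype, of the CD45 allele and of the gate used for sorting cannot be told apart. Before sequencing, spleen NK cells were enriched by negative selection and sorted for Ly49H and for the donor's CD45 allele. All animals of the study were young adults.

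TNF superfamily ligands are trimeric proteins, most of which are made as transmembrane proteins on the cell surface and some of which are then shed by proteases. They bind receptors of the TNF receptor superfamily, which can recruit TRAF adaptors and switch on NF-κB. Some of these receptors, TNFR1 among them, carry a death domain that can lead to NF-κB or to apoptosis. TNFα, the product of Tnf, binds TNFR1 and TNFR2 and is released by activated NK cells, while FasL (Fasl) and TRAIL (Tnfsf10) are the death ligands with which NK cells kill through receptors on the target cell. The comparison asks how transcripts of the ligands stood in NK cells without TNFR2.

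Of the 10 genes, 3 lie side by side on chromosome 17 (GRCm38, mm10), inside the major histocompatibility complex. Ltb runs on the plus strand from 35194439 to 35196320, Tnf on the minus strand from 35199381 to 35202007 and Lta on the minus strand from 35203165 to 35205351. The gap between Tnf and Lta is 1158 bases and that between Ltb and Tnf is 3061 bases. Tnfsf14 lies further along the same chromosome, on the minus strand from 57189492 to 57194177, and Fasl on chromosome 1, between 161780689 and 161788495 of the minus strand. The other 5 genes lie apart, Tnfsf4 on chromosome 1 (161395409 to 161418410, plus strand), Tnfsf10 on chromosome 3 (27317028 to 27342427, plus strand), Tnfsf8 on chromosome 4 (63831308 to 63861347, minus strand), Tnfsf13b on chromosome 8 (10006467 to 10039072, plus strand) and Tnfsf11 on chromosome 14 (78277445 to 78308043, minus strand). None of the transcript sequence of Tnf, Lta, Ltb, Fasl or Tnfsf14, cut into stretches of 31 bases, occurs in another gene of the annotation (0.0% each), and for Tnfsf10 and Tnfsf13b the share was 1.48% and 0.202%.

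**Figure D1:**
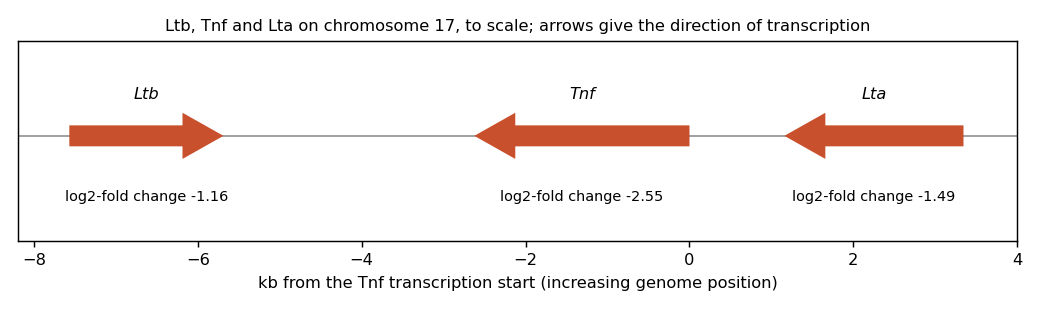
The genes Ltb, Tnf and Lta drawn to scale in kb from the start of Tnf, with arrows for the direction of transcription and each gene's log2-fold change (TNFR2 KO against wild-type) beneath it. All 3 genes carry negative values, from -1.16 for Ltb to -2.55 for Tnf, and that of Lta rests on at most 22 counts per library.

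All 3 genes of this cluster had lower values in both TNFR2 KO libraries. For Lta these were 8 and 5 counts against 17 and 22 in wild-type. The groups did not overlap, in either direction, for 74.0% of all genes tested. The 250 bases before the transcription start are shown for this cluster and for Fasl, the ligand that was higher. They were read 5′ to 3′ on the strand of each gene from the RefSeq promoter table for GRCm38.p6, which held 9 of the 10 genes, Tnfsf4 being the exception. The windows are chr17:35202008-35202257 (minus strand) for Tnf, chr17:35205352-35205601 (minus strand) for Lta, chr17:35194257-35194506 (plus strand) for Ltb, whose RefSeq start lies inside the GENCODE span given above, and chr1:161788496-161788745 (minus strand) for Fasl. Capitals mark TATAAA in Tnf and Lta. In Ltb they mark the reverse complement of a κB decamer and then the T-box letters GGTGTG as such. In Fasl they mark the reverse complement of those T-box letters.
Tnf: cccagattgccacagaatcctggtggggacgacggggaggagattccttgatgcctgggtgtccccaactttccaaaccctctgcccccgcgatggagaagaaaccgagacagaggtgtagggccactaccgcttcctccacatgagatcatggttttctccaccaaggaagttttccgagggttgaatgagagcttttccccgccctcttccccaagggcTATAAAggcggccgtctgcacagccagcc
Lta: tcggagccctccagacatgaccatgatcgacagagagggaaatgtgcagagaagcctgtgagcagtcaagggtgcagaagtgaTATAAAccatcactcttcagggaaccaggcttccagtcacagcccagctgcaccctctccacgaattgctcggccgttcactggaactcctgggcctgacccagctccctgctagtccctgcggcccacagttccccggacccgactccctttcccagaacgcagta
Ltb: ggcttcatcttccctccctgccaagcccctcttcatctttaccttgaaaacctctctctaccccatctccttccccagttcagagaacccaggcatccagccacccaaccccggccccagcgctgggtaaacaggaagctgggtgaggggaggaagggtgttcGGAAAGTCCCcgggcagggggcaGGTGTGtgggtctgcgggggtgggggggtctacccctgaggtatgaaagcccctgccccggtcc
Fasl: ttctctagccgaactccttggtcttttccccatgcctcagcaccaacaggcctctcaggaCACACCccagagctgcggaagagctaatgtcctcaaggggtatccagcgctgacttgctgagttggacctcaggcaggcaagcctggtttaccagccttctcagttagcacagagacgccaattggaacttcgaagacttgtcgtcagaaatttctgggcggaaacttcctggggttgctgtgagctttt

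The κB decamer, the consensus bound by NF-κB, was searched on both strands and stood in 1 of the 9 genes, Ltb, starting 87 bases before its start, and in 7.25% of all 32851 promoters of the table. The AP-1 letters TGANTCA, searched on both strands, stood in Tnfsf13b and Tnfsf14, against 6.75% of all promoters. GGTGTG, searched on both strands, was found in Ltb and Fasl and in 16.3% of all promoters, and TATAAA, searched on the strand of the gene alone, in Tnf, 29 bases before its start, in Lta, 167 bases before its start, and in 7.59% of all promoters. None of these letter patterns overlapped another in these genes. Such matches describe the sequence only.

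The transcripts also differed at their 3′ ends, where Tnf carries the AU-rich element through which proteins such as tristetraprolin (Zfp36) shorten the life of its mRNA. The nonamer TTATTTATT occurred 5 times in the 764 bases of the Tnf 3′ UTR, a number reached by 0.185% of 21028 coding genes. It occurred 1 time each in Lta and Tnfsf13b and 0 times in the 3′ UTRs of the other 7 ligands, against 7.57% of coding genes with at least 1. The 30 bases of the Tnf 3′ UTR with the most nonamers, 4 in all, are given in DNA letters with the nonamers in capitals, which run into each other.
Tnf AU-rich element: ttaTTATTTATTATTTATTTATTATTTATT

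The libraries held 32713054 to 39543464 counts, and levels are given as CPM, a gene's count scaled to a common library size with edgeR's TMM factors. Differences are log2-fold changes, negative where TNFR2 KO was lower, with ± for the standard error. Tnfrsf1b, the targeted gene, measured 264.7 and 268.6 CPM in wild-type and 55.1 and 58.6 CPM in TNFR2 KO. The NK cell markers Ncr1 (NKp46) and Klra8 (Ly49H) were present in every library, at 255.5 to 258.3 CPM and 313.3 to 315.9 CPM in wild-type and at 510.5 to 511.3 CPM and 725.8 to 762.1 CPM in TNFR2 KO. All 14 NK cell markers of a list drawn up for these cells were higher in both TNFR2 KO libraries, with a summed level of 16746 to 16824 CPM in wild-type and 30427 to 30713 CPM in TNFR2 KO. Of 24 macrophage or monocyte markers, 21 were lower in both TNFR2 KO libraries, and their sum was 3843 to 3921 CPM in wild-type and 1598 to 1618 CPM in TNFR2 KO. The defining myeloid marker Csf1r measured 254.2 and 255.5 CPM in wild-type and 27.4 and 26.7 CPM in TNFR2 KO, and 1 gene of that list, Vsig4, was at most at 0.0312 CPM. Lyz2 followed Csf1r, from 771.5 and 777.7 CPM to 114.0 and 110.4 CPM, whereas Ccr2, which NK cells can also express, was higher in TNFR2 KO, from 403.5 and 384.0 CPM to 686.6 and 669.7 CPM. Summed neutrophil or granulocyte precursor markers went from 1032 to 1050 CPM in wild-type to 101.6 to 105.6 CPM in TNFR2 KO, with 14 of 14 lower in both libraries. Summed mast cell or basophil markers went from 1277 to 1281 CPM to 102.8 to 103.03 CPM, with 10 of 11 lower. Cma1 rose instead, from 21.9 and 23.1 CPM to 71.9 and 73.3 CPM, and made up most of the TNFR2 KO sum. Summed dendritic cell or class II markers measured 2209 to 2239 CPM in wild-type and 1085 to 1111 CPM in TNFR2 KO, with 8 of 12 lower. Itgax, the 1 higher gene there, rose from 419.0 and 408.9 CPM to 882.5 and 908.3 CPM, most of the TNFR2 KO sum. All of these myeloid lists were thus lower in TNFR2 KO, while the NK list was higher. T cell markers were present in all libraries and summed to 1481 to 1488 CPM in wild-type and 1349 to 1382 CPM in TNFR2 KO, with Cd3e at 118.9 and 120.3 CPM against 99.1 and 100.9 CPM. Of these 11 markers, 7 were lower and 2 higher in both TNFR2 KO libraries, the highest log2-fold change being 0.55. In bulk RNA, fewer cells of a type and less RNA per cell cannot be told apart.

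**Figure D2:**
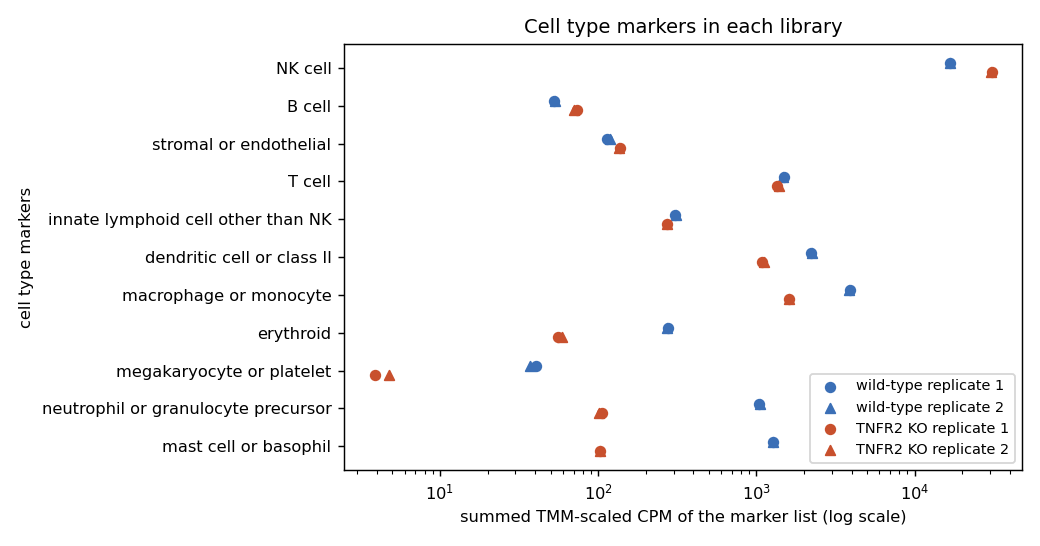
Summed TMM-scaled CPM of each cell type marker list on a log axis, with a circle or triangle for each library, blue for wild-type and orange for TNFR2 KO. NK cell markers are higher in both TNFR2 KO libraries, and macrophage, granulocyte, mast cell or basophil, dendritic cell, erythroid and megakaryocyte markers are lower.

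Among the ligands, the TNFR2 KO libraries held less Tnf, Ltb and Tnfsf13b transcript and more Fasl than the wild-type libraries. Tnfsf10, Tnfsf4, Tnfsf8, Tnfsf11 and Tnfsf14 did not pass the test. Lta was also called lower, but it passed the filter on low counts only through its wild-type libraries and most alternatives did not keep its call, so it is given as a value and not as support. In edgeR's quasi-likelihood test, the adjusted p was under 0.05 for 5 of the 10 genes, against 50.4% of the 13822 genes tested. The 4 lower ligands, Lta among them, compare with 26.2% of all genes lower at that threshold, and the 1 higher ligand with 24.2% higher. With the fold change threshold of the study in addition, a log2-fold change beyond 1 in size, the same 4 ligands were lower, or 3 without Lta (11.8% of all genes), and 0 higher (1.56% of all genes). DESeq2 also gave 0 higher ones, and 1 of the 10 ligands, Fasl, was higher at an unadjusted p under 0.05 in edgeR. In either direction 6 of the 10 had an unadjusted p under 0.05, against 7696 of all 13822 genes. All 10 genes passed the filter, the other 9 in both groups. The values of the groups did not overlap for 8 of the 10 ligands, against 74.0% of all genes. The median log2-fold change of the ligands was -0.30, beside -0.003 for all genes tested.

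The count of 4 lower ligands was 3 with DESeq2, without the filter and with the replicate block, where Lta missed the threshold, and 2 without TNFR2 KO replicate 1, where Lta and Tnfsf13b missed it. Scaling on NK cell markers in place of TMM took the median over all genes to -0.81 and the share of lower genes among those past both thresholds from 88.3% to 99.3%.

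**Figure D3:**
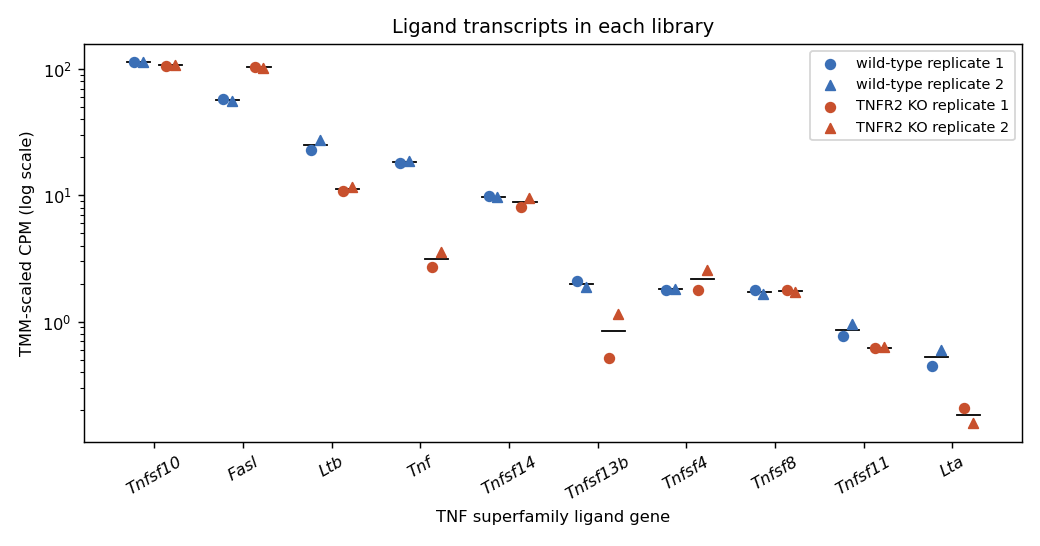
TMM-scaled CPM of the 10 ligand genes in each library on a log axis, ordered by their wild-type mean, with circles and triangles for replicates 1 and 2, blue for wild-type, orange for TNFR2 KO, and a line at each group mean (n = 2). Tnf shows the widest gap, from 17.96 and 18.7 CPM to 2.71 and 3.56 CPM, and Fasl is the ligand with both TNFR2 KO values above both wild-type values.

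In the wild-type libraries Tnf stood at 17.96 and 18.7 CPM, and in the TNFR2 KO libraries at 2.71 and 3.56 CPM. Both TNFR2 KO values lay far below both wild-type values, and the group means, 18.3 ± 0.499 and 3.14 ± 0.597 CPM (SD, n = 2), differed by 5.84-fold. The difference was -2.55 ± 0.130 on the log2 scale (adjusted p = 6.82e-09, edgeR's quasi-likelihood test), and 5.05% of all genes tested fell as far or further. Within the pools of spleens the log2 ratio was -2.73 in the first and -2.39 in the second. Tnf stayed past both thresholds under all 12 alternatives, with log2-fold changes between -3.37 and -2.35. The macrophage or monocyte markers, genes of cells that also make TNFα, had a median log2-fold change of -2.91, and their part in the difference in Tnf was not tested.

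Ltb encodes lymphotoxin β, which anchors lymphotoxin α in the membrane and so forms the ligand of the lymphotoxin β receptor. It measured 22.6 and 27.5 CPM in wild-type and 10.9 and 11.5 CPM in TNFR2 KO. The wild-type duplicates differed more between themselves than the TNFR2 KO duplicates, and the groups did not overlap. The difference was -1.16 ± 0.0977 on the log2 scale (adjusted p = 8.22e-07, edgeR), with -1.06 and -1.25 within the pools. It passed both thresholds under all 12 alternatives, at -1.005 without wild-type replicate 2, which is close to the fold change threshold. T cells also make lymphotoxins, and the part of the T cell and myeloid markers given above in the values of Ltb and Lta was not tested.

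Lta encodes lymphotoxin α, which as a soluble trimer binds the same receptors as TNFα. It had 17 and 22 counts in wild-type and 8 and 5 counts in TNFR2 KO, or 0.448 and 0.597 CPM against 0.207 and 0.156 CPM. The groups did not overlap, but the gene sat at the bottom of the measurable range. The difference was -1.49 ± 0.549 on the log2 scale (adjusted p = 0.0393, edgeR). The call was lost with the replicate block (adjusted p = 0.0618), with DESeq2 (adjusted p = 0.170), without the filter (adjusted p = 0.0590) and without any 1 of the 4 libraries (adjusted p from 0.109 to 0.288).

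Fasl encodes the ligand of the death receptor Fas, which NK cells and cytotoxic T cells use to kill. It measured 57.7 and 56.1 CPM in wild-type and 103.1 and 102.3 CPM in TNFR2 KO. Duplicates agreed closely and the groups did not overlap. The level in TNFR2 KO was 1.81-fold that of wild-type, with a difference of 0.85 ± 0.0376 on the log2 scale (adjusted p = 1.75e-09, edgeR) and ratios of 0.84 and 0.87 on the log2 scale within the pools. As far a rise was seen in 2.94% of all genes tested. Its change lay beside the median of 0.82 of the 14 NK cell markers, and with scaling on those markers Fasl stood at 0.04 (adjusted p = 0.310), where the median of all genes was -0.81.

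Tnfsf10 encodes TRAIL, which triggers apoptosis through the receptor Tnfrsf10b. It measured 112.6 and 113.4 CPM in wild-type and 106.5 and 107.2 CPM in TNFR2 KO. The TNFR2 KO values were below the wild-type values by little. The difference was -0.08 ± 0.0324 on the log2 scale (adjusted p = 0.0555, edgeR). It missed the threshold, but passed it with library size alone as scaling (-0.14, adjusted p = 0.00319), with the filter at 10 CPM (-0.12, adjusted p = 0.00769) and with scaling on NK cell markers (-0.89). Together the death ligands Fasl and Tnfsf10 held 73.0% to 74.8% of the summed CPM of the 10 genes in wild-type and 87.2% to 88.7% in TNFR2 KO. The sum itself was 227.6 to 232.3 CPM in wild-type and 236.2 to 240.5 CPM in TNFR2 KO. These shares are not scaled to transcript length, and the mean length was 2991 bases for Tnfsf10, 1550.5 for Tnf and 1032.5 for Ltb.

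**Figure D4:**
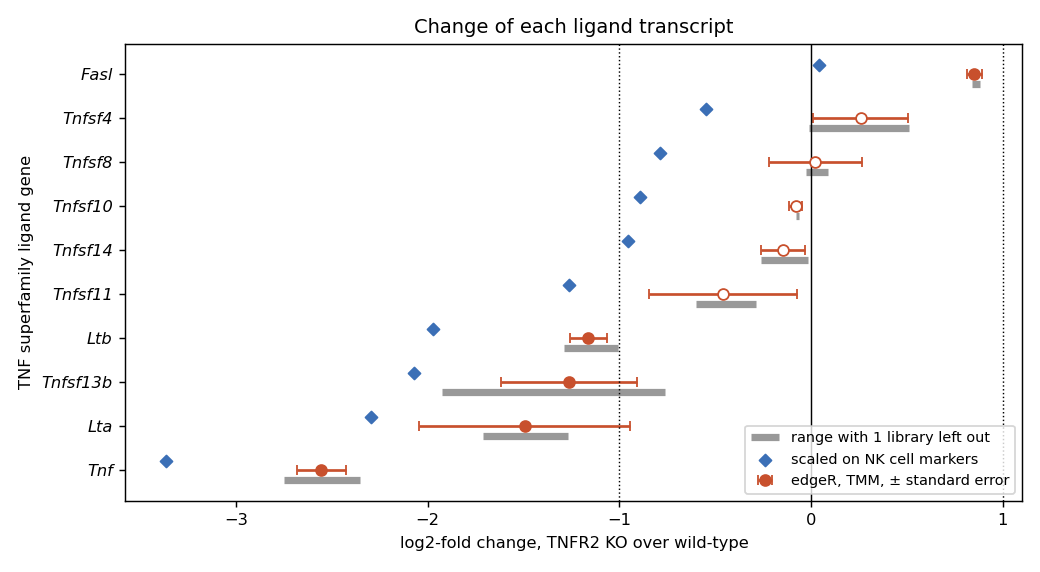
Log2-fold change, TNFR2 KO against wild-type, for each ligand, with orange points and bars for edgeR's estimate ± standard error (filled where the adjusted p is under 0.05), grey bars for the range with each library left out in turn and blue diamonds for scaling on NK cell markers, and dotted lines at -1 and 1. Tnf and Ltb keep left of -1 throughout, the range of Tnfsf13b crosses it, and Fasl moves from 0.85 to 0.04 with the NK marker scaling.

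Tnfsf13b encodes BAFF, a survival factor for B cells that is made mainly by myeloid and stromal cells. It measured 2.08 and 1.87 CPM in wild-type and 0.517 and 1.15 CPM in TNFR2 KO. Both TNFR2 KO values were lower, but they differed between themselves by more than 2-fold. The difference was -1.26 ± 0.355 on the log2 scale (adjusted p = 0.0107, edgeR), with -2.01 in the first pool and -0.70 in the second. Without TNFR2 KO replicate 1, a library with 20 counts for the gene, the change was -0.76 (adjusted p = 0.0642), and without TNFR2 KO replicate 2 it was -1.92. The gene's span overlaps that of the antisense gene Gm44789, while 0.202% of its transcript stretches of 31 bases occur in another gene on either strand. The annotation and strand setting of the counting are not given. The myeloid marker lists named above were lower in the same libraries, and their part in the value of Tnfsf13b was not tested.

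The remaining ligands act mostly on activated T cells, B cells and myeloid cells. Tnfsf14, or LIGHT, a ligand of HVEM (Tnfrsf14) and of the lymphotoxin β receptor, measured 9.81 and 9.68 CPM in wild-type and 8.12 and 9.55 CPM in TNFR2 KO, or -0.15 ± 0.116 on the log2 scale (adjusted p = 0.328, edgeR). Tnfsf4, or OX40 ligand, measured 1.79 and 1.82 CPM in wild-type and 1.78 and 2.56 CPM in TNFR2 KO, or 0.26 ± 0.248 on the log2 scale (adjusted p = 0.422). Tnfsf8, the CD30 ligand, measured 1.79 and 1.65 CPM in wild-type and 1.78 and 1.72 CPM in TNFR2 KO, or 0.02 ± 0.241 on the log2 scale (adjusted p = 0.947). For Tnfsf4 and Tnfsf8 the groups overlapped, and the direction was negative with scaling on NK cell markers (-0.55 and -0.79). Tnfsf11, or RANKL, the ligand that drives osteoclast formation, measured 0.765 and 0.949 CPM in wild-type and 0.620 and 0.624 CPM in TNFR2 KO, or -0.46 ± 0.384 on the log2 scale (adjusted p = 0.353). Its TNFR2 KO duplicates lay below both wild-type values, and the difference did not pass the test. With scaling on NK cell markers Tnfsf11 stood at -1.27 (adjusted p = 0.00794, edgeR) and Tnfsf14 at -0.96 (adjusted p = 4.33e-06, edgeR). The median of all genes was then -0.81.

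Levels of different genes were set side by side as CPM per kb of coding transcript, using the mean length of each gene's protein-coding transcripts. In wild-type the order was Fasl (48.6), Tnfsf10 (37.8), Ltb (24.3), Tnf (11.8), Tnfsf14 (5.28), Tnfsf4 (0.980), Tnfsf13b (0.658), Tnfsf8 (0.453), Tnfsf11 (0.383) and Lta (0.378 CPM per kb). The last pair could not be ordered, since the wild-type duplicates ran from 0.342 to 0.425 for Tnfsf11 and from 0.324 to 0.431 for Lta. In TNFR2 KO the order began with Fasl (87.7), Tnfsf10 (35.7) and Ltb (10.9), and Tnfsf14 (4.78) then stood above Tnf (2.02 CPM per kb). Tnfsf11 and Tnfsf13b overlapped there, and Lta was again the lowest (0.131 CPM per kb). With the longest transcript in place of the mean length, Tnfsf8 (0.453) stood above Tnfsf13b (0.414) in wild-type and the other places were unchanged.

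Of the 8 other ligands of the family, 5 could be tested, of which 3 were lower (26.2% of all genes) and 1 higher (24.2% of all genes) at an adjusted p under 0.05. Cd40lg, which encodes CD40 ligand, an activator of B cells and dendritic cells, went from 39.1 and 38.2 CPM in wild-type to 28.4 and 27.9 CPM in TNFR2 KO, or -0.46 on the log2 scale (adjusted p = 1.31e-05, edgeR). Tnfsf12, which encodes TWEAK, was higher, with 26.7 and 25.5 CPM against 57.7 and 58.1 CPM, or 1.15 on the log2 scale (adjusted p = 1.47e-09). Tnfsf13, which encodes the B cell factor APRIL, was lower, with 7.09 and 6.70 CPM against 1.42 and 1.4046 CPM, or -2.28 on the log2 scale (adjusted p = 2.43e-07). Tnfsf12 and Tnfsf13 share 47.4% and 58.4% of their 31-base stretches with the read-through gene Tnfsfm13, so that their counts are uncertain. Tnfsf15, named after its values were seen, was the other gene lower past both thresholds, with 35 and 44 counts in wild-type and 1 and 1 in TNFR2 KO. It passed the filter on low counts only through its wild-type libraries, so that it could enter the test only as a lower gene.

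Of the 15 receptors of the 10 ligands, 13 could be tested, and 8 were lower, the targeted gene Tnfrsf1b among them, and 0 higher in edgeR's test (adjusted p under 0.05), with 10 at an unadjusted p under 0.05. Over all genes 26.2% were lower and 24.2% higher at an adjusted p under 0.05, and 7696 of 13822 had an unadjusted p under 0.05. The median log2-fold change of the receptors was -0.66. Tnfrsf1b, the targeted gene itself, fell by 2.23 on the log2 scale (adjusted p = 1.35e-13). Tnfrsf1a, which encodes TNFR1, the other receptor of TNFα, measured 85.8 and 85.4 CPM in wild-type and 55.1 and 60.6 CPM in TNFR2 KO, or -0.57 on the log2 scale (adjusted p = 6.63e-07). Besides Tnfrsf1b, 3 receptors were lower past both thresholds (11.8% of all genes) and are named after their values were seen. Ltbr, the lymphotoxin β receptor of myeloid and stromal cells, stood at -2.82, Tnfrsf11a, the receptor of RANKL on osteoclast precursors and dendritic cells, at -2.47 and Tnfrsf13b, a BAFF receptor, at -1.396. Macrophage markers with a median of -2.91 moved in the same libraries, and their part in these values was not tested.

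The genes around the ligands were counted in lists drawn up by function. With scaling on NK cell markers, the genes of these lists that were higher at an adjusted p under 0.05 turned negative, except Tnfsf12 (0.34). They were 2 genes of shedding, 3 of mRNA stability, 6 transcription factors and 3 NF-κB targets. The scaling took the median of all genes to -0.81, a larger shift than the highest value among them (0.69). Their turn was thus fixed by the scaling. Eomes, 1 of these factors, is also among the scaling markers, as is Tbx21, named after its values were seen. Of 8 genes of shedding and membrane cleavage, 7 could be tested, with 4 lower and 2 higher at an adjusted p under 0.05, against 26.2% and 24.2% of all genes. Adam10, the most abundant protease beside Sppl2a, stood at 0.08 (adjusted p = 0.0317, edgeR). Sppl2a, a protease that cuts the stub of TNFα in the membrane, had -0.34, Sppl2b 0.37, and Rhbdf2 (iRhom2), which brings the TNFα-releasing protease ADAM17 to the surface, had -0.92 (adjusted p = 2.11e-08). Timp3, an inhibitor of ADAM17 named after its values were seen, was the gene past both thresholds, at -1.79 from 1.34 and 1.22 CPM.

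Of 10 genes that control the stability of Tnf mRNA, 3 were lower and 3 higher in edgeR's test (adjusted p under 0.05), with 6 at an unadjusted p under 0.05, and 0 passed both thresholds in edgeR or DESeq2. These 6 genes stand beside 50.4% of all genes called in either direction at an adjusted p under 0.05. At an unadjusted p under 0.05 there were 7696 of all 13822 genes. The median of the 10 genes was 0.01. Zfp36l2, a relative of tristetraprolin, had 0.24, Hnrnpd -0.13 and Mapkapk2, a kinase that stabilises Tnf mRNA, -0.39 (adjusted p = 8.52e-08). Tristetraprolin's own gene Zfp36, added after its values were seen, had -0.24 (adjusted p = 5.16e-05, edgeR). The 13 transcription factors that act at ligand genes ran from -0.59 to 0.69 with a median of 0.003. At an adjusted p under 0.05 in edgeR, 5 were lower (26.2% of all genes) and 6 higher (24.2% of all genes). At an unadjusted p under 0.05 there were 11, against 7696 of all 13822 genes. Past both thresholds there were 0 in edgeR or DESeq2. Nfkb2, the p100 subunit of NF-κB, had -0.59 (adjusted p = 2.46e-08), Nfkb1 0.0007, Junb 0.25 and Eomes, a T-box factor of NK cells, 0.69 (adjusted p = 3.06e-10).

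Of 15 genes that TNFα is known to induce through NF-κB, 11 were lower and 3 higher at an adjusted p under 0.05, against 26.2% and 24.2% of all genes. Their median was -0.35 on the log2 scale beside -0.003 for all genes. Icam1, an adhesion molecule, had -0.41 (adjusted p = 2.14e-07, edgeR), and Tnfaip3, the NF-κB inhibitor A20, had 0.11 (adjusted p = 0.0073). Tnfaip2 was the gene with the smallest adjusted p, at 156.6 and 162.3 CPM in wild-type and 20.5 and 21.7 CPM in TNFR2 KO, or -2.92 on the log2 scale. The other gene past both thresholds, Bcl2a1a (-3.42), was picked once its values were known and shares 79.6% of its 31-base stretches with other genes, so that its count is uncertain. Bcl2a1b and Bcl2a1d, also named after values were seen, are among the 11 lower genes and share 88.8% and 89.1%. The counts of these Bcl2a1 genes are therefore not independent. The lists of receptors and NF-κB targets moved together with the NK cell and myeloid marker lists given above, and the part of these cells in them was not tested.

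**Figure D5:**
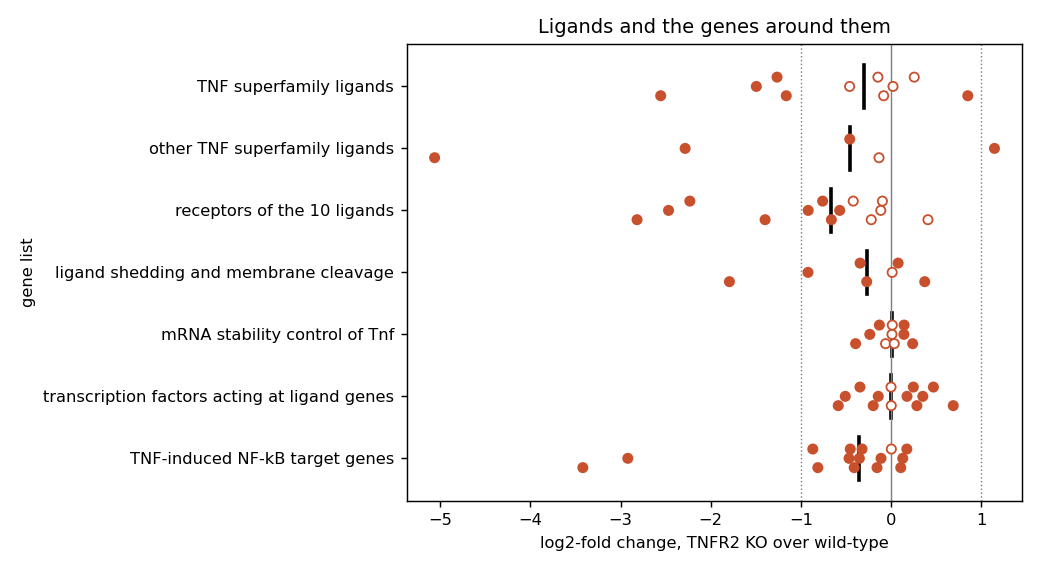
Log2-fold change, TNFR2 KO against wild-type, for every tested gene of the 10 ligands and of 6 lists around them, filled where the adjusted p is under 0.05, with a black line at each list's median and dotted lines at -1 and 1. Receptors have the lowest median (-0.66), and the lists for mRNA stability and transcription factors lie inside the dotted lines.

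As a description of likeness, the genes nearest to each ligand past both thresholds, at most 3 each, were sought among those with a mean of at least 10 CPM, by the distance between their log2 CPM values in the 4 libraries after subtraction of each gene's mean. For Tnf, Plxna1 and Clic5 lay at distances of 0.113 and 0.120 among 8762 genes, with log2-fold changes of -2.66 and -2.43. For Ltb they were Nt5dc2, Lap3 and Pla2g15, at 0.104 to 0.145. For Lta they were Parp8, C130026I21Rik and Pdxk, at 0.249 to 0.253, and for Tnfsf13b Susd1, Il13 and Fcgrt, at 0.536 to 0.614. Over 4 libraries in 2 groups this measure reads mostly the size of the difference between the groups.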

How the data were processed

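Poly-A selected, stranded libraries were sequenced as paired ends. The authors used Trimmomatic for trimming and Kallisto 0.46.1 for pseudoalignment to mm10, then summed transcripts per gene with Tximport and deposited the estimated counts (expected counts) unscaled. The annotation and the strand setting are not given in the sources used here.

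A row without a gene name (0.0559% to 0.0728% of counts) was left out. Counts were rounded, filtered with filterByExpr (minimum count 10), TMM-scaled and tested across 13822 genes with edgeR 4.0.16 (R 4.3.3), glmQLFit and glmQLFTest, genotype as the only term, Benjamini-Hochberg adjustment over all genes. The steps were tested on simulated data. edgeR's biological coefficient of variation was 3.33%, and duplicates differed by more than sampling noise (mean chi-square per gene 3.29 and 3.49). The duplicates came from 1 experiment with pooled spleens, so p-values measure the spread between these libraries. That spread may be technical and does not give the variation between mice. An exact permutation test of 2 against 2 cannot go below p = 0.333 and was not used.

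The sample descriptions in the labels place same-numbered wild-type and TNFR2 KO libraries in 1 spleen pool, and the pairing rests on these alone (their deviations from the group means correlated at 0.024). DESeq2 1.42.0 and 11 further alternatives were run. The NK marker scaling used the median ratio over 14 genes.

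The ligands and lists were chosen with earlier results of these data known. Genes named are the ligands, Tnfrsf1b, in each other list the 2 most abundant genes and the smallest adjusted p per direction (for marker lists printed only in part), the nearest profiles and the markers Ncr1, Klra8, Csf1r and Cd3e, with exceptions marked in the text. Of the genes under this rule, 2 are not reported here. The TATAAA and AU-rich searches were added after values were seen. Positions, lengths and 3′ UTRs come from GENCODE M21 (GRCm38), and promoters from RefSeq (GRCm38.p6). Protein sequences were not used here. Plots used matplotlib 3.10.9 under Python 3.11.15.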

Additional observations from a re-analysis of the deposited data

How the results depend on the processing

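Tnf, Ltb and Tnfrsf1b kept their direction and their calls under all 12 alternatives. The number of ligands lower past both thresholds was 2 with a mean of at least 10 CPM, where 4 ligands were tested, and 2 to 3 with each library left out. The number with an adjusted p under 0.05 was 8 with scaling on NK cell markers and 3 to 4 with each library left out. That scaling also moved the genes past both thresholds to 5 ligands, 10 receptors, 4 shedding genes, 2 mRNA stability genes, 4 transcription factors and 9 NF-κB targets. Of all 13822 genes, 4053 were then lower and 28 higher past both thresholds, with the median of all genes at -0.81. With a mean of at least 10 CPM the genes of these lists past both thresholds were 1 other ligand, 2 receptors, 0 shedding genes and 1 NF-κB target, as fewer genes were tested. With each library left out they were 2 to 3 for NF-κB targets and 4 to 5 for receptors. Directions turned for Tnfsf4 (-0.55 with NK marker scaling, -0.0122 to 0.51 with each library left out, the lowest without TNFR2 KO replicate 2) and for Tnfsf8 (-0.0382 with library size alone, -0.79 with NK marker scaling, -0.0253 to 0.0897 with each library left out, the lowest without wild-type replicate 2). Of these, Tnfsf8 with NK marker scaling passed the test (adjusted p = 0.00875, edgeR), a scaling that took the median of all genes from -0.003 to -0.81. The causes of the other turns were not tested. With the replicate block, pairing libraries by spleen pool, the lower ligands numbered 3 and those with an adjusted p under 0.05 numbered 4, as Lta lost its call, and it changed no other call among the ligands. Over all genes, those lower past both thresholds ran from 424 with the 10 CPM filter to 4053 with NK marker scaling, against 1627. Lta, Tnfsf4, Tnfsf8, Tnfsf11 and Tnfsf13b each had under 100 counts in every library.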
